A study of Mus musculus with 30 samples.

Results

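Peroxisomes shorten fatty acids that mitochondria handle poorly, among them very long-chain and branched-chain fatty acids and the side chains of bile acid precursors. An acyl-CoA oxidase opens each round, a multifunctional enzyme and a thiolase complete it, membrane transporters bring the CoA esters in, and carnitine acyltransferases release the shortened products. The kidney, above all the proximal tubule, is rich in peroxisomes. Here 7 genes of this route or of peroxisomal acyl-CoA metabolism beside it (Acox2, Acox3, Hsd17b4, Pecr, Amacr, Abcd3 and Crot) were followed in kidney and aorta, out of 41128 genes counted in each tissue. They were chosen by name, with earlier results of these data known: Acox2 had been noticed as lower on high-fat diet in the kidneys of knockout mice. That contrast is therefore given below as a description, without a test, for all 7 genes.

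RNA was sequenced from male mice, labelled C57Bl6J, in 4 groups. KO mice lacked the EGF receptor in vascular smooth muscle: they carried floxed Egfr and a tamoxifen-inducible Cre (CreERT2) driven by the smooth muscle Smmhc (Myh11) promoter. WT mice had the Cre but no loxP sites in Egfr, and tamoxifen was given to both genotypes (1 mg per day for 5 days). High-fat diet (HFD) or standard-fat diet (SFD) was started 7 days later, at 6 weeks of age, and was fed for 18 weeks. The groups are WT-SFD, WT-HFD, KO-SFD and KO-HFD, with 4 kidneys in each (16 libraries) and with 3, 4, 3 and 4 aortae (14 libraries). Each library came from 1 mouse, named here by its group and number, and 3 mouse numbers occur in both tissues. The total count was 16354880 to 28331314 per kidney library and 6403699 to 13052870 per aorta library. Values are given as FPM, that is fragments per 1000000 counted fragments of a library, scaled by edgeR's TMM factors. The aortae had been cleared of surrounding fat and connective tissue before freezing. RNA came from kidney and aorta tissue and not from sorted cells, so that fewer cells of a type and less RNA per cell cannot be told apart.

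The labels were first checked on Egfr. In the aorta it ranged from 39.5 to 54.3 FPM in WT-SFD, 51.2 to 65.1 in WT-HFD, 26.8 to 35.5 in KO-SFD and 27.5 to 40.6 in KO-HFD, and the KO aortae lay below the WT aortae on each diet without overlap. The differences (log2 −0.64 ± 0.166 SE on SFD and −0.70 ± 0.142 on HFD) did not pass edgeR's quasi-likelihood test after Benjamini-Hochberg adjustment over all genes (adjusted p = 0.531 and 0.130). These counts cover the whole gene and are not restricted to the floxed part. In the whole kidney the genotypes overlapped on each diet: 39.1 to 58.4 FPM in WT-SFD, 36.9 to 56.6 in WT-HFD, 46.7 to 60.8 in KO-SFD and 40.5 to 45.5 in KO-HFD. The aortae carried abundant smooth muscle transcripts (Acta2 4235 to 8745 FPM) and the kidneys abundant transcripts of the proximal tubule phosphate transporter Slc34a1 (5895 to 10805 FPM).

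The members are all protein-coding, and their positions are given on GRCm38 (GENCODE vM21). Acox2 is on chromosome 14 (8225511 to 8259353, minus strand), Acox3 and Crot are on chromosome 5 (35583040 to 35615352, plus strand, and 8966033 to 8997324, minus strand), Pecr on chromosome 1 (72259167 to 72284314, minus strand), Amacr on chromosome 15 (10981756 to 10996626, plus strand) and Abcd3 on chromosome 3 (121758774 to 121815302, minus strand). The exons of Acox2, Hsd17b4, Amacr and Abcd3 overlap no exon of another annotated gene. Those of Pecr (11.5% of the exonic bases), Acox3 (6.08%) and Crot (3.04%) do, and the strand setting of the counting is not given in the sources used here.

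RefSeq promoter windows of 300 bases (GRCm38.p6) were at hand for 5 of the 7 genes. The stretches below are shown because Acox2 and Acox3 encode oxidases that open the same pathway, and because Pecr had the WT diet difference nearest to that of Acox2. Capitals mark CCAAT and GGGCGG on either strand (ATTGG is CCAAT on the other strand). For Acox2 the 30 bases around its match are given (chr14:8258858-8258887, minus strand), and for Acox3 (chr5:35582784-35583033, plus strand) and Pecr (chr1:72284322-72284571, minus strand) the 250 bases before the annotated start.
Acox2: aagagtctgaagATTGGgcctatagggaag
Acox3: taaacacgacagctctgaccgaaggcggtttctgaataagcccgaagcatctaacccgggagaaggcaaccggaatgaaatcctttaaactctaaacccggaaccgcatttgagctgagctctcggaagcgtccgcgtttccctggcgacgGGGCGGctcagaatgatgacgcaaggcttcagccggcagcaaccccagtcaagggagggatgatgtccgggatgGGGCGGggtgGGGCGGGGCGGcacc
Pecr: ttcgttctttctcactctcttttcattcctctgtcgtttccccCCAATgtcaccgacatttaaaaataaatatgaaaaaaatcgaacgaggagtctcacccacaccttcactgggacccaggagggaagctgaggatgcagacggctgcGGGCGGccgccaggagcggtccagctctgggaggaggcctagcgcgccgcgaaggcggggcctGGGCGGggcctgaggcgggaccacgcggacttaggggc

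Acox2 has 2 windows in RefSeq. The stretch shown comes from the downstream start, 36 bases before it, and lies within the first exon of a longer GENCODE transcript. GGGCGG was in neither window of Acox2 and occurred 4 times in the stretch of Acox3, where the last 2 matches share a base, and 2 times in that of Pecr. Of all 32817 windows, 37.4% held CCAAT and 35.6% GGGCGG, so both are common. The window of Crot held CCAAT 1 time and GGGCGG 2 times, so Pecr was not alone in holding both. AGGTCA (in 16.3% of all windows) and TATAAA (13.6%) were in none of the windows of Acox2, Acox3, Pecr, Crot and Abcd3. These matches describe letters and not sites of binding.

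All 7 genes were well expressed in the kidney and passed the filter on low counts. Per kilobase of merged exon (1516 bases for Pecr up to 11521 for Acox3), the level in WT-SFD kidneys was highest for Pecr (320 ± 50.7 FPM per kb, SD, n = 4), followed by Amacr (191 ± 37.0), Hsd17b4 (90.6 ± 9.28), Crot (82.9 ± 16.4), Abcd3 (49.6 ± 6.92), Acox2 (41.5 ± 4.88) and Acox3 (25.9 ± 8.13). Between neighbours in this order the ranges of the 4 kidneys overlapped for Hsd17b4 and Crot and for Abcd3 and Acox2, and were separate for the other pairs. Per kilobase, the order of the 2 oxidases was the other way round in KO-HFD kidneys. Acox2 was the lowest of the 7 genes there at 20.4 ± 1.60 FPM per kb, below Acox3 at 25.7 ± 2.97. The ranges did not overlap (18.3 to 22.0 against 22.6 to 29.3). Both orders rest on the merged exon length, 3703 bases for Acox2 against 11521 for Acox3. In FPM, without that divisor, the mean of Acox3 was above that of Acox2 in both groups. It was 298 against 154 FPM in WT-SFD and 296 against 75.6 FPM in KO-HFD. Acox2 had been noticed for its low level in the KO-HFD kidneys, so its place in the order there is a description and nothing is read from it.

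Acox2, the oxidase for the CoA esters of bile acid intermediates, was lower on HFD in WT kidneys. Its values were 141, 145, 148 and 180 FPM in WT-SFD (in order WT-SFD-1309, WT-SFD-1446, WT-SFD-1694 and WT-SFD-1695) and 74.4, 103, 113 and 120 FPM in WT-HFD (WT-HFD-1535, WT-HFD-1613, WT-HFD-1641 and WT-HFD-1642). Every WT-HFD kidney lay below every WT-SFD kidney, and the lowest, WT-HFD-1535, stood apart from the other WT-HFD kidneys. Acox2 fell by 33.1% (log2 fold change −0.58 ± 0.127 SE, 95% interval −0.86 to −0.30). In the fit of all 4 groups it passed the test across all genes (edgeR adjusted p = 0.0353). Acox2 was the only 1 of the 7 members called at an adjusted p under 0.05 in this contrast, against a background of 0.964% of the 15034 genes tested, or 0.146% when only genes lower on HFD are counted. It was also the only 1 of the 7 members whose WT diet groups did not overlap, against 5.01% of all genes. The fit of all 4 groups took its spread from WT and KO kidneys together. Its SE, interval and p therefore draw on the KO kidneys that served to choose Acox2. The SD was 7.19% of the mean in KO-SFD and 7.85% in KO-HFD, against 11.8% in WT-SFD and 19.6% in WT-HFD. With only the WT kidneys fitted, the log2 fold change was −0.58 ± 0.146 (SE) and Acox2 was not called (adjusted p = 0.160). In the fit of all 4 groups the call was close to its threshold. The adjusted p was between 0.0560 and 0.127 when WT-SFD-1694, WT-SFD-1695, WT-HFD-1535 or WT-HFD-1613 was left out. The log2 fold change was between −0.60 and −0.46 in these 4 fits. DESeq2 gave an adjusted p of 0.00122.

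In KO kidneys, the contrast on which Acox2 was noticed, the values were 130, 146, 147 and 154 FPM in KO-SFD (KO-SFD-1303, KO-SFD-1451, KO-SFD-1318 and KO-SFD-1319) and 67.7, 74.9, 78.4 and 81.5 FPM in KO-HFD (KO-HFD-1520, KO-HFD-1504, KO-HFD-1558 and KO-HFD-1437). The KO-HFD kidneys spread little (75.6 ± 5.94 FPM, SD, n = 4) and did not overlap with KO-SFD (144 ± 10.4 FPM). The log2 fold change was −0.93 ± 0.129 (SE), a percent change of −47.6, given as a description without a test. In this contrast 2.39% of all genes were called and 8.87% had groups that did not overlap, and Acox2 was the 1 member of 7 without overlap. The choice of Acox2 on these kidneys fixed this count, so nothing is read from it.

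Between the genotypes, Acox2 differed little on SFD (log2 fold change of KO against WT −0.09 ± 0.127 SE) and was lower in KO on HFD (−0.44 ± 0.128). The WT-HFD and KO-HFD kidneys overlapped: WT-HFD-1535, at 74.4 FPM, lay inside the range of KO-HFD (67.7 to 81.5 FPM), and the other WT-HFD kidneys lay above it. With mice left out in turn the difference on HFD ran from −0.56 (without WT-HFD-1535) to −0.36 (without WT-HFD-1642). The difference between the diet effects of the genotypes was −0.35 ± 0.180 (SE) on the log2 scale, without a test, because the KO kidneys had served to choose the gene. These comparisons share their groups with those above.

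**Figure D1:**
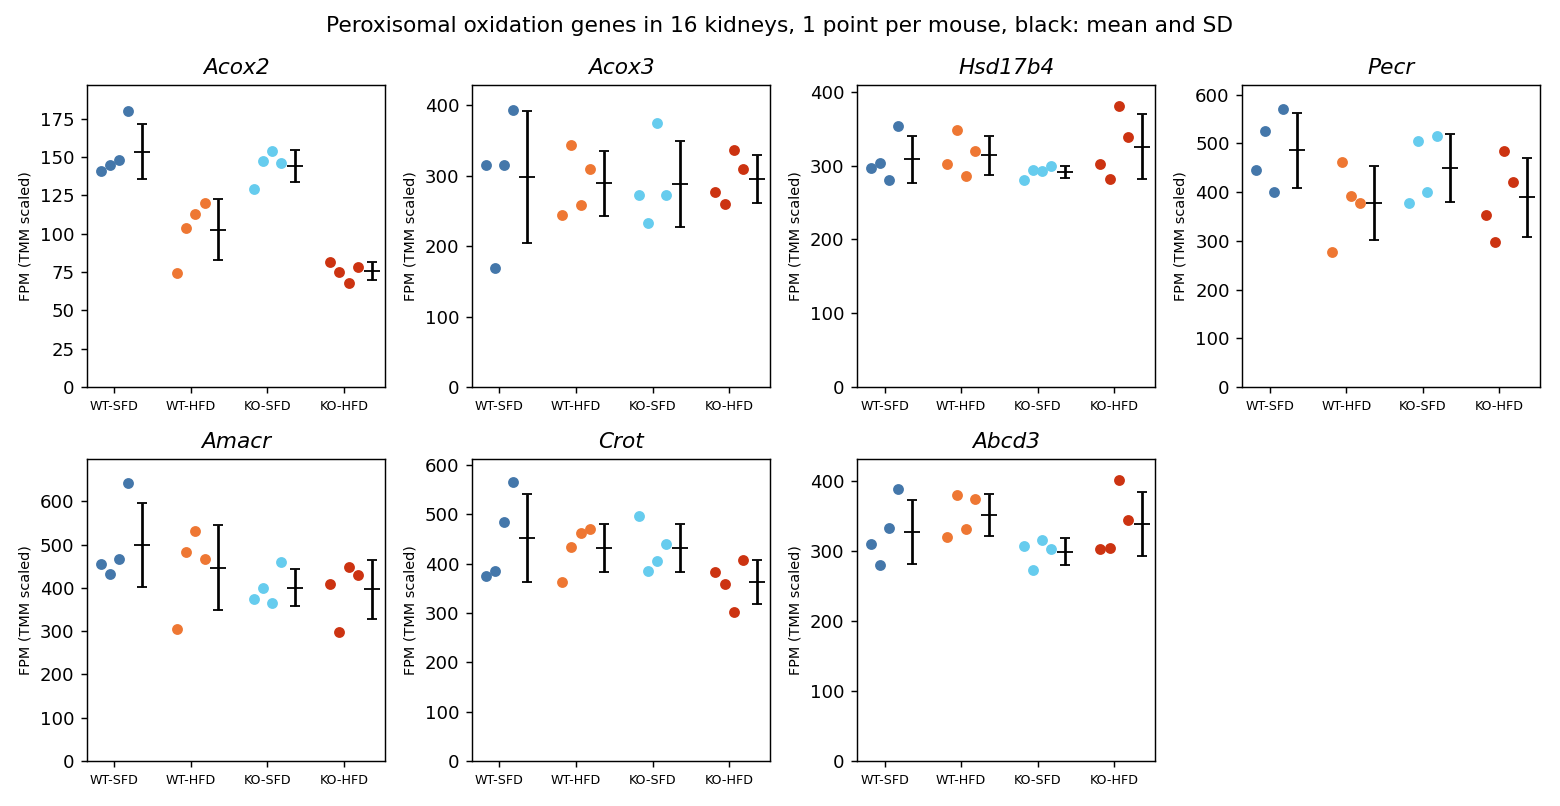
FPM (vertical axis, starting at 0) of the 7 members in 16 kidneys, 1 point per mouse, by group, with the mean and SD in black. The Acox2 panel shows the HFD kidneys of each genotype below its SFD kidneys, with WT-HFD-1535 at 74.4 FPM among the KO-HFD values, and the groups overlap within each genotype for the other 6 genes.

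Acox3, the oxidase for pristanoyl-CoA and other branched-chain substrates, had its widest range in WT-SFD. Its WT kidneys lay between 169 and 394 FPM on SFD, with a median of 315 FPM, and between 245 and 344 FPM on HFD, with a median of 284 FPM. Its KO kidneys lay between 233 and 375 FPM on SFD (median 273 FPM) and between 260 and 337 FPM on HFD (median 294 FPM). WT-SFD alone covered the range of every other group. The diet difference in WT was −0.04 ± 0.204 (SE) with a 95% interval of −0.49 to 0.40 (adjusted p = 0.999), so that a change as large as that of Acox2 lies just outside this interval. In KO it was 0.04 ± 0.204. With a term for proximal tubule markers it was −0.27 ± 0.192 in WT and −0.48 ± 0.254 in KO, so the interval above holds for the main fit only.

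Hsd17b4, the D-bifunctional protein that hydrates and dehydrogenates the products of the oxidases, is on chromosome 18 of GRCm38 (50128201 to 50196269, plus strand). Its means were 308 ± 31.6 FPM in WT-SFD, 314 ± 26.6 in WT-HFD, 292 ± 8.21 in KO-SFD and 326 ± 43.6 in KO-HFD (SD, n = 4 each). All 4 groups overlapped in range. The WT diet difference was 0.03 ± 0.104 (SE, 95% interval −0.20 to 0.25, adjusted p = 0.998), and the KO diet difference was 0.16 ± 0.104. Both turned below 0 with the term for proximal tubule markers.

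Pecr, the peroxisomal trans-2-enoyl-CoA reductase, was nearest to Acox2 in its WT diet difference. It was 399, 446, 526 and 570 FPM in WT-SFD and 277, 377, 392 and 461 FPM in WT-HFD. The groups overlapped, and the difference of −0.36 ± 0.175 (SE, 95% interval −0.75 to 0.02) did not pass the test (adjusted p = 0.632). In KO the values were 377, 400, 504 and 515 FPM on SFD and 298, 354, 420 and 485 FPM on HFD, with a difference of −0.21 ± 0.175, which was −0.11 without KO-HFD-1504 and −0.69 with a term for proximal tubule markers. Amacr, the racemase that gives 2-methyl-branched acyl-CoAs the configuration the oxidases accept, had a WT diet difference of −0.16 ± 0.173 (adjusted p = 0.947) and a KO diet difference of −0.01 ± 0.173. Its highest kidney was WT-SFD-1695 at 642 FPM, and its lowest were KO-HFD-1504 at 298 FPM and WT-HFD-1535 at 305 FPM. Without WT-SFD-1695 its WT diet difference was −0.02.

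The transporter and the carnitine acyltransferase did not pass the test for diet in WT either. Abcd3 (PMP70), the membrane transporter that brings branched-chain and bile acid intermediates into the peroxisome, was 327 ± 45.6 FPM in WT-SFD, 351 ± 30.3 in WT-HFD, 299 ± 18.7 in KO-SFD and 338 ± 46.0 in KO-HFD (SD, n = 4 each). Its diet differences were 0.10 ± 0.115 (SE) in WT (adjusted p = 0.953) and 0.18 ± 0.115 in KO, and both turned below 0 with a term for proximal tubule markers (given with the markers). Crot, the carnitine octanoyltransferase that prepares shortened chains for export, was 452 ± 89.6, 432 ± 48.4, 431 ± 48.8 and 363 ± 45.0 FPM in the same order of groups. Its diet differences were −0.07 ± 0.140 in WT (adjusted p = 0.985) and −0.25 ± 0.140 in KO. Without WT-SFD-1695 the WT difference was 0.06 for Crot and 0.19 for Abcd3. Without KO-HFD-1520 the KO difference of Crot was −0.16.

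**Figure D2:**
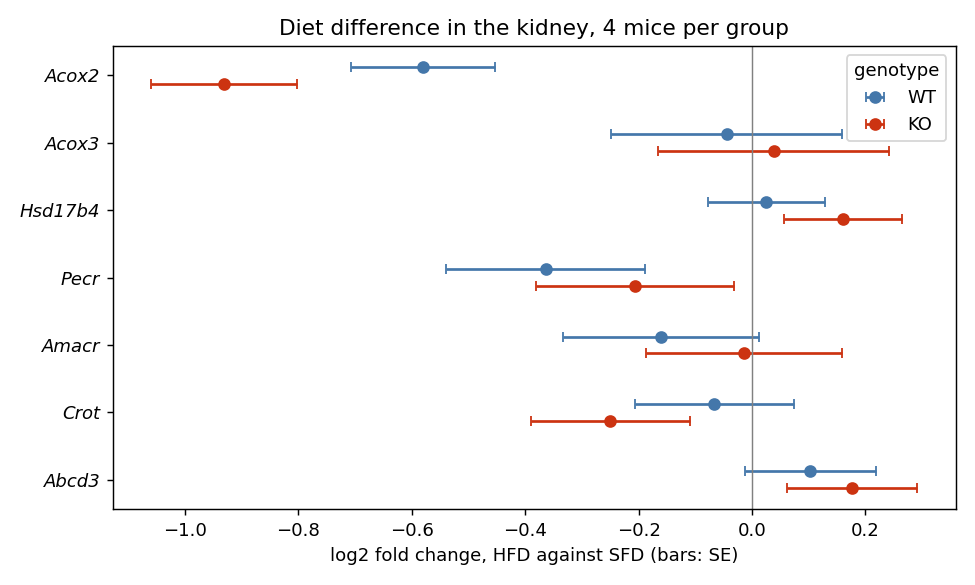
Log2 fold change of HFD against SFD in the kidney (horizontal axis) for each member, in WT (blue) and KO (red), with bars of 1 SE and 4 mice per group. Acox2 lies at −0.58 in WT and −0.93 in KO, and the other 6 genes lie between −0.36 and 0.18.

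Over the 7 members the median diet difference in WT kidneys was −0.07, against −0.0047 over all genes tested, with 2 values above 0 and 5 below. In KO kidneys it was −0.01, with 3 above 0 and 4 below. For KO against WT, the 6 members other than Acox2 gave no call by edgeR on SFD (background 0.0133% of all genes, 2 of 15034) or on HFD (background 0%), none with an unadjusted p under 0.05, and none by DESeq2. On SFD all 7 members were below WT (−0.32 to −0.05), with Amacr lowest at −0.32 ± 0.173 (SE, adjusted p = 0.612), and on HFD 3 of 7 were above. Proximal tubule markers lay the same way on SFD (8 of 10 below 0, median −0.21). With a term for these markers 4 members were above 0 on SFD: Acox3 at 0.18, Pecr at 0.08, Hsd17b4 at 0.04 and Abcd3 at 0.0069. Without WT-SFD-1695 the SFD difference was 0.05 for Crot, above 0, and −0.0053 for Acox2. The interaction of diet and genotype had a background of 0% in the kidney.

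The rest of the pathway was read from a list of 29 other peroxisomal oxidation genes, of which 24 were tested in the kidney. None was called by edgeR in WT or KO on HFD against SFD or in KO against WT on either diet, and none by DESeq2. At an unadjusted p under 0.05 there were 3 and 4 in the diet contrasts of WT and KO, 2 in KO against WT on SFD and 0 on HFD. Over all 15034 genes there were 1210 and 2427 in the diet contrasts of WT and KO, and 1307 and 263 in those of genotype. Their median diet difference was 0.04 in WT and 0.08 in KO. Ehhadh, the L-bifunctional protein, was at −0.48 ± 0.161 (SE, adjusted p = 0.292) in WT and −0.14 ± 0.161 (adjusted p = 0.699) in KO, and it was picked after its values had been seen, as the counterpart of Hsd17b4. The 16 peroxins, which build the peroxisome, had 0 calls by edgeR and 0 with an unadjusted p under 0.05 in the diet contrasts, with medians of −0.03 in WT and −0.06 in KO. Of 14 other targets of PPARA, the nuclear receptor that controls many genes of fatty acid oxidation, 0 were called, with 1 and 2 at an unadjusted p under 0.05 and medians of 0.02 and 0.04. Among the nephron and adipocyte markers 5 genes were called, all of them higher on HFD: Slc5a2, the proximal tubule glucose transporter SGLT2 (1.20 ± 0.206, adjusted p = 0.00533 in WT and 1.54 ± 0.208, adjusted p = 5.94e-04 in KO), and in KO Slc22a8 (1.44 ± 0.181, adjusted p = 3.99e-04), Slc5a12 (1.13 ± 0.256, adjusted p = 0.0253), Slc12a3 (0.71 ± 0.144, adjusted p = 0.0124) and, at low counts, the adipocyte hormone gene Lep (4.91 ± 1.04, adjusted p = 0.0158). The lists these genes belong to mostly lay below 0, apart from the proximal tubule markers in KO. Of the 11 adipocyte markers tested, 9 were below 0 in WT (median −0.90) and 10 in KO (median −1.25). Of the 9 distal nephron markers tested, 8 were below 0 in WT (median −0.30) and 7 in KO (median −0.22). Of the 10 proximal tubule markers, 6 were below 0 in WT (median −0.05) and 2 in KO (median 0.19).

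Markers of cell types also moved between kidneys. The summed level of 10 proximal tubule markers was 15200.5 to 19802 FPM in WT-SFD, 14576 to 18698 in WT-HFD, 14032 to 16196 in KO-SFD and 15263 to 23362 in KO-HFD, with 0 of 10 at a count of 0. The summed level of 10 distal nephron and collecting duct markers (1 at 0, Umod most abundant) was 9031 to 9521 FPM in KO-SFD and 4945 to 7883 in KO-HFD, without overlap, and 6676 to 8963 in WT-SFD against 6062 to 7801 in WT-HFD, with overlap; their part in the Acox2 difference was not tested. On HFD against SFD, the median of 4 leucocyte markers was 0.22 in WT and 0.60 in KO, with 0 and 2 at an unadjusted p under 0.05. That of 4 smooth muscle markers was −0.03 and −0.25, with 0 and 1. Over all 15034 genes there were 1210 and 2427. The part of the leucocyte and smooth muscle markers in the Acox2 difference was not tested. The 12 adipocyte markers, with Fabp4 most abundant, summed to 60.4 to 755 FPM and were highest in KO-SFD-1451 and KO-SFD-1303. With the mean of the adipocyte markers in the model, the Acox2 diet difference was −0.59 ± 0.132 (SE) in WT and −0.94 ± 0.133 in KO. The mean log2 FPM of the proximal tubule markers was 9.56 to 9.63 in KO-SFD and 9.80 to 10.27 in KO-HFD, so this mean separates the KO diet groups, and it includes Slc5a2, Slc22a8 and Slc5a12, which were themselves called on diet. With it in the model the Acox2 difference was −0.63 ± 0.146 in WT, where the adjusted p became 0.0601, and −1.02 ± 0.194 in KO. The same term moved other members down as well. In KO Pecr was at −0.69 ± 0.217, Amacr at −0.48 ± 0.210 and Acox3 at −0.48 ± 0.254. Abcd3 and Hsd17b4 changed sign, to −0.05 ± 0.100 and −0.11 ± 0.0930 in WT and to −0.16 ± 0.132 and −0.13 ± 0.123 in KO. In WT Pecr was at −0.60 ± 0.164 (adjusted p = 0.128).

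The genes whose levels followed Acox2 most closely over the 16 kidneys, among 12286 genes, were Aqp7, an aquaglyceroporin (Pearson's r of log2 FPM 0.920), Tmem183a (0.914), Osbpl1a, an oxysterol-binding protein (0.911), Acadm, the mitochondrial medium-chain acyl-CoA dehydrogenase (0.907), and Idi1, an enzyme of isoprenoid and cholesterol synthesis (0.905). The lowest were Gm5540 (−0.909), Col8a1, a collagen chain (−0.905), and Sv2a (−0.902). These values are a description: the kidneys share 4 groups, and the diet step enters every r. After the group means had been subtracted, r was 0.659 for Aqp7, 0.833 for Tmem183a, 0.573 for Osbpl1a, 0.710 for Acadm and 0.738 for Idi1. For the lowest genes r was then −0.779 for Gm5540, −0.621 for Col8a1 and −0.639 for Sv2a. Among the members, r with Acox2 was 0.648 for Crot, 0.579 for Pecr, 0.480 for Amacr, 0.067 for Acox3, −0.220 for Abcd3 and −0.282 for Hsd17b4. After the group means had been subtracted it was above 0 for all 6: 0.623 for Crot, 0.430 for Pecr, 0.684 for Amacr, 0.343 for Acox3, 0.276 for Abcd3 and 0.136 for Hsd17b4. The diet differences of these genes are given without a test, since the diet step of Acox2 entered their choice. That of Acadm was −0.46 ± 0.123 (SE) in both genotypes and that of Idi1 was −1.06 ± 0.206 in WT and −0.87 ± 0.207 in KO, against 2.12 ± 0.261 and 2.99 ± 0.278 for Col8a1.

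In the aorta the members were far less abundant, with values scaled separately from those of the kidney. Acox2 was close to absent: it had 7 fragments in WT-SFD-1310, 2 in KO-SFD-1319, 1 each in KO-SFD-1507, KO-HFD-1454 and KO-HFD-1505, and 0 in the other 9 aortae. It did not pass the filter on low counts and was not tested. The other 6 members passed. Per kilobase, WT-HFD aortae had 11.6 ± 0.950 FPM of Hsd17b4 (SD, n = 4), 5.31 ± 0.384 of Abcd3, 3.75 ± 0.392 of Crot, 2.78 ± 0.638 of Pecr, 2.57 ± 0.181 of Acox3 and 1.03 ± 0.436 of Amacr.

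Abcd3 and Hsd17b4 had the largest diet differences in WT aortae. Abcd3 was 36.1, 70.8 and 84.8 FPM in WT-SFD (WT-SFD-1445, WT-SFD-1310 and WT-SFD-1309) and 32.4, 34.1, 35.3 and 38.4 FPM in WT-HFD. Hsd17b4 was 36.0, 87.1 and 87.9 FPM in the same WT-SFD mice and 36.4, 36.8, 41.3 and 42.9 FPM in WT-HFD. Of these, WT-SFD-1310 and WT-SFD-1309 were high and WT-SFD-1445 lay within the WT-HFD range for Abcd3 and just below it for Hsd17b4. The log2 fold changes were −0.87 ± 0.241 (SE, adjusted p = 0.0788) and −0.84 ± 0.244 (adjusted p = 0.0871), so neither passed the test. KO-SFD-1319 was high for both (60.5 and 61.9 FPM), KO-SFD-1452 was high for Hsd17b4 (52.5 FPM) but not for Abcd3 (37.6 FPM), and KO-SFD-1507 was low for both (30.1 FPM of Abcd3 and 35.4 FPM of Hsd17b4). In KO-HFD, Abcd3 was 33.9 to 39.0 FPM and Hsd17b4 33.3 to 41.3 FPM, and the KO diet differences were −0.24 ± 0.243 (adjusted p = 0.837) and −0.35 ± 0.245 (adjusted p = 0.761). With mice left out in turn that of Abcd3 ran from −0.45 (without KO-SFD-1507) to 0.10 (without KO-SFD-1319), and that of Hsd17b4 from −0.56 to −0.17 (without the same mice).

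The same aortae were high in adipocyte markers. The 12 markers, all detected and led by Fabp4, summed to 3889 FPM in WT-SFD-1309, 2697 in WT-SFD-1310, 2217 in KO-SFD-1319 and 832 in KO-SFD-1452, against 85.6 in WT-SFD-1445, 86.3 in KO-SFD-1507 and 46.6 to 199 in the 8 HFD aortae. With the mean of these markers in the model the WT diet difference was −0.29 ± 0.156 (SE) for Abcd3 (adjusted p = 0.677) and −0.21 ± 0.142 for Hsd17b4 (adjusted p = 0.746). Without the 4 aortae rich in these markers, each SFD group holds 1 aorta, assumed to vary like the other groups, and the difference was −0.04 ± 0.151 for Abcd3 and 0.13 ± 0.166 for Hsd17b4. The KO diet differences were above 0 in these same fits: 0.26 ± 0.153 and 0.26 ± 0.151 for Abcd3, and 0.16 ± 0.136 and 0.14 ± 0.163 for Hsd17b4. When WT-SFD-1445 was left out instead, both genes were called (−1.15 ± 0.191, adjusted p = 0.00110, and −1.15 ± 0.165, adjusted p = 5.53e-04), among 1907 genes called in that fit against 0 with all aortae.

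**Figure D3:**
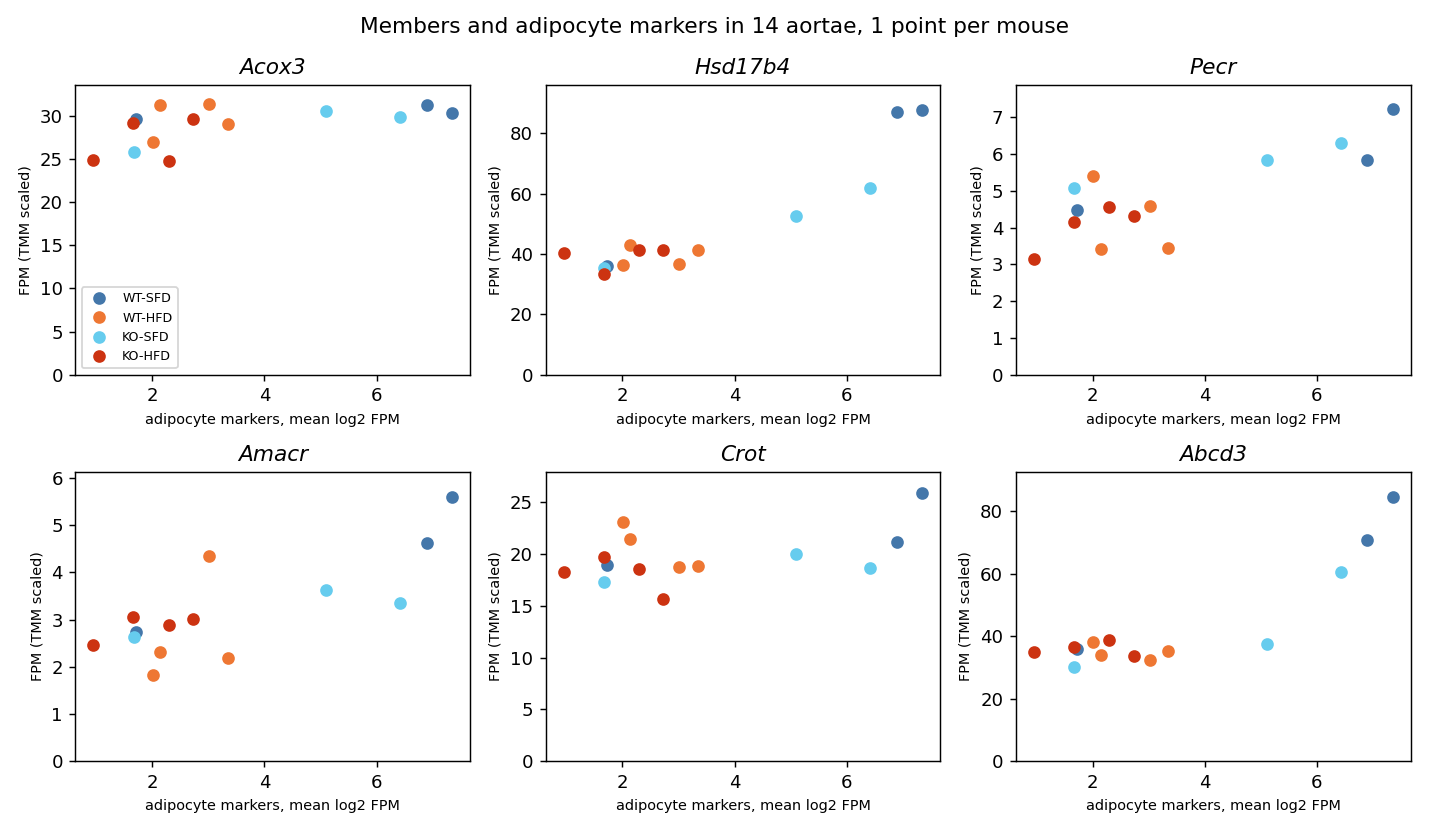
FPM of 6 members (vertical axis, starting at 0) against the mean log2 FPM of 12 adipocyte markers (horizontal axis) in 14 aortae, 1 point per mouse, coloured by group. For Hsd17b4 and Abcd3 the highest points are WT-SFD-1309, WT-SFD-1310 and KO-SFD-1319, the 3 aortae farthest to the right, and Acox3 lies between 24.8 and 31.3 FPM throughout.

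The remaining members varied less or were scarce in the aorta. Acox3 was 24.8 to 31.3 FPM over all 14 aortae, with a WT diet difference of −0.03 ± 0.109 (SE, 95% interval −0.28 to 0.21, adjusted p = 0.915). Crot was 15.6 to 25.8 FPM, with a WT diet difference of −0.10 ± 0.135 (adjusted p = 0.767). Pecr (3.15 to 7.23 FPM) had differences of −0.48 ± 0.234 in WT (adjusted p = 0.319) and −0.48 ± 0.233 in KO (adjusted p = 0.642), and in KO its diet groups did not overlap. Amacr (1.84 to 5.60 FPM) had differences of −0.72 ± 0.309 in WT (adjusted p = 0.245) and −0.14 ± 0.316 in KO (adjusted p = 0.944). With the adipocyte marker term Pecr was at −0.22 ± 0.278 in WT and −0.28 ± 0.256 in KO, and Amacr at −0.28 ± 0.351 and 0.20 ± 0.326. Without the 4 aortae rich in these markers Pecr was at −0.09 ± 0.395 and −0.31 ± 0.350, and Amacr at −0.07 ± 0.525 and 0.12 ± 0.465.

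No member was called by edgeR in any of the 5 contrasts of the aorta, where the background was 0% for the diet contrast in WT, 0% in KO, 0.0811% (12 of 14796 genes) for KO against WT on SFD, 0.0811% on HFD and 0% for the interaction. At an unadjusted p under 0.05 there were 3 members of 6 in WT on HFD against SFD, 1 in KO against WT on SFD and 0 in the other 3 contrasts. Over all 14796 genes there were 2520 and 967 in the first 2 of these contrasts. DESeq2 called 2 members in the WT diet contrast, Abcd3 and Hsd17b4, among 666 genes in all, and 0 members elsewhere. Non-overlapping diet groups were seen for 0 of 6 members in WT, against 8.96% of all genes, and for 1 of 6 (Pecr) in KO, against 7.04%. The members' median diet difference was −0.60 in WT and −0.19 in KO, against −0.012 and −0.0019 over all genes tested.

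Other genes of the pathway mostly had diet differences below 0 in the aorta, and their relation to the adipocyte markers was not tested. From the list of 29 other peroxisomal oxidation genes 17 were tested. In WT 17 of these had a diet difference below 0 (median −1.27), and in KO 15 did (median −0.71). None was called by edgeR in either contrast, with 14 and 8 at an unadjusted p under 0.05 (2520 and 1162 over all genes), while DESeq2 called 8 and 0. The summed level of the list was 427 FPM in the lowest WT-SFD aorta and 2284 FPM in the highest, against 406 to 509 FPM in WT-HFD. A large part of this sum was 1 gene, Acsl1, at 105 to 987 FPM in WT-SFD and 89.1 to 136 FPM in WT-HFD. Over 12 adipocyte markers the median diet difference was −3.87 in WT and −3.38 in KO, with 0 calls by edgeR and 11 and 10 at an unadjusted p under 0.05. Over 4 smooth muscle markers it was 0.36 and 0.24.

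**Figure D4:**
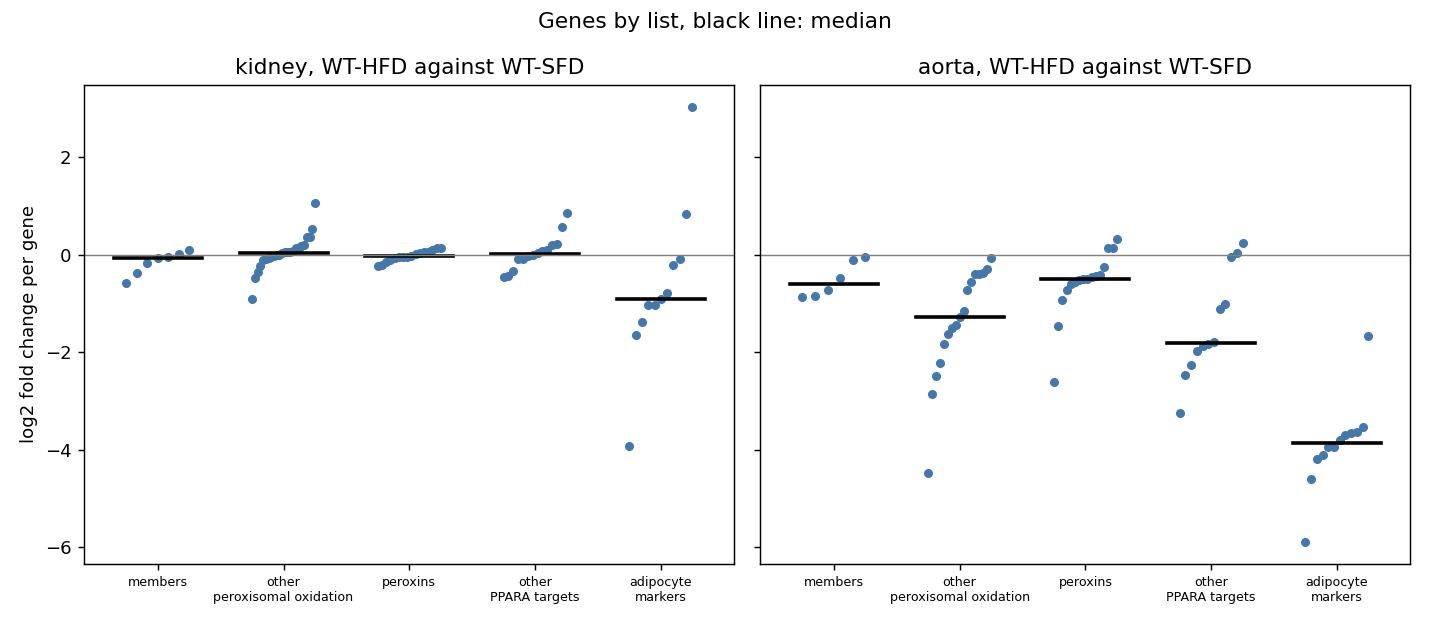
Log2 fold change of WT-HFD against WT-SFD (vertical axis) for the tested genes of 5 lists, 1 point per gene, in kidney (left) and aorta (right), with the median as a black line. In the kidney the medians of the first 4 lists lie between −0.07 and 0.04, and in the aorta those of all 5 lie below 0, from −0.50 for the peroxins to −3.87 for the adipocyte markers.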

How the data were processed

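The authors mapped the reads with Tophat2 (GRCm38/mm10) and used featureCounts for gene counts; the deposited raw counts per gene and mouse were taken as they are. The tools were R 4.3.3, edgeR 4.0.16 and DESeq2 1.42.0. Counts were scaled by TMM, filtered with filterByExpr (15034 genes kept in kidney, 14796 in aorta), and tested with glmQLFit and glmQLFTest in 1 model per tissue with a coefficient for each of the 4 groups. Benjamini-Hochberg adjustment ran over all genes tested in a contrast, with calls under 0.05. SE is the absolute log2 fold change divided by the square root of F, and 95% intervals used the residual degrees of freedom. The fit was also run on simulated counts, whose outcome is not given, so no result here rests on that step. Kidneys and aortae were sequenced at different sites and never fitted together. Members and lists were chosen with earlier results of these data known. From other lists, genes called in a diet or genotype contrast (at most 5 per list and contrast) and the most abundant marker are named, besides Ehhadh, which was added after its values were seen, Egfr and the genes most and least correlated with Acox2 (5 and 3, with a mean log2 FPM of at least 1 and a prior count of 2). Alternatives covered DESeq2, other scalings and filters, each mouse left out and marker covariates; the marker covariates in the kidney were chosen after seeing the data. Lengths came from GENCODE vM21, promoters from RefSeq.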

Additional observations from a re-analysis of the deposited data

Results flagged for a closer look

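Of 40 groups of 4 mice examined for 1 value far from the rest (Dixon's criterion, which chance alone meets in about 1 of 20 groups), 2 were marked. Amacr was 642 FPM in WT-SFD-1695, against 466 FPM in the next highest kidney of WT-SFD. Hsd17b4 was 33.3 FPM in the aorta of KO-HFD-1454, against 40.5 FPM in the next lowest aorta of KO-HFD.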

How the results depend on the processing

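In WT kidneys on HFD against SFD, the count of members called was 0 at an adjusted p under 0.001, 0 when only the WT groups were fitted and 0 with the proximal tubule marker term, and it ran from 0 to 1 when mice were left out in turn. The log2 fold change of Acox2 was −0.58 (adjusted p = 0.160) with only the WT groups and −0.63 (adjusted p = 0.0601) with the proximal tubule term, and −0.66 to −0.46 with mice left out (adjusted p = 0.0276 to 0.127). In KO kidneys Acox2 ranged from −1.02 to −0.87 over its alternatives. In WT aortae the members called were 2 by DESeq2 and 0 to 2 with mice left out, the 2 being reached without WT-SFD-1445. The other peroxisomal oxidation genes called there were 8 by DESeq2, 6 with library totals in place of TMM, 6 without the filter on low counts, and 0 to 14 with mice left out, with 14 reached without WT-SFD-1445. Over all genes 666, 312, 347 and 1907 were called in these 4 settings, against 0. The cause of these differences was not tested. The member value called in the main fits, Acox2 in WT kidneys, kept its direction in all 16 alternatives. Over all members, the sign changed in 40 of 609 alternative values in the kidney and 50 of 486 in the aorta. Hsd17b4 in WT aortae, called by DESeq2 at −0.83, was at 0.13 without the 4 aortae rich in adipocyte markers. Scaling by library totals moved the median of all genes in the aorta by 0.111 for the WT diet contrast, −0.109 for KO and 0.291 for KO against WT on SFD. No paired analysis was possible because no compared groups of a tissue share 2 or more mouse numbers. The tested members under 10 FPM in the aorta, Pecr and Amacr, rest on few fragments, and Acox2 there on 0 to 7 per library.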
